A study of Mus musculus with 18 samples.

Results

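The genes described here are 28 genes of cholesterol synthesis and its control by sterol regulatory element binding proteins (SREBPs), of 55487 genes in each deposited count table. They were chosen by symbol, and each of the 28 symbols named a row in both tables. By role they are 5 enzymes from acetyl-CoA to activated isoprene units (Acat2, Hmgcs1, Mvk, Pmvk, Mvd), 3 isoprene enzymes (Idi1, Fdps, Ggps1), 11 enzymes from squalene synthesis to cholesterol (Fdft1, Sqle, Lss, Cyp51, Tm7sf2, Msmo1, Nsdhl, Hsd17b7, Ebp, Sc5d, Dhcr7), the SREBP genes and their regulators (Srebf1, Srebf2, Scap, Insig1, Insig2), the sterol carrier Stard4, and 3 fatty acid genes (Acly, Fasn, Scd2). The study knocked down Smndc1, a splicing factor, in alphaTC1 cells, a mouse line of pancreatic alpha cells, and asked how it bears on the expression of pancreatic hormones. In the first experiment, cells carried an shRNA against Smndc1 (shSmndc1, 3 libraries) or an empty vector (EV, 3 libraries), and were taken on day 5 after transduction. In the second, cells also carried RIP-mCherry, a red reporter under the rat insulin promoter. Its groups were cells with the shRNA sorted as reporter-positive (shSmndc1_RIP_pos, here positive cells, 4 libraries) or as reporter-negative (shSmndc1_RIP_neg, negative cells, 4 libraries), and cells with the empty vector and the reporter (EV_RIP, 4 libraries). The labels do not state a day for the second experiment or whether EV_RIP cells were sorted, and the model is 1 cell line. Nothing says that the replicates were grown separately, so every p-value reflects library-to-library spread alone, possibly technical.

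Cholesterol is built from acetyl-CoA through mevalonate and isoprene units to squalene, which is closed into lanosterol and then trimmed and reduced to cholesterol in the endoplasmic reticulum. When sterols are low, Scap carries the SREBP precursors to the Golgi for cleavage, and the released factors turn on most genes of the route; when sterols are high, the Insig proteins hold Scap back. In islet cells the membrane cholesterol made or taken up this way is known to affect granule formation and hormone secretion.

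Smndc1 had 10.4, 9.52 and 10.5 counts per 1000000 counts (CPM) in shSmndc1, against 41.9, 40.2 and 35.1 CPM in EV. In the second experiment it had 16.6, 22.4, 16.0 and 25.2 CPM in positive cells, 23.9, 43.4, 36.3 and 44.6 CPM in negative cells, and 37.6, 54.9, 39.3 and 46.3 CPM in EV_RIP. The knockdown passed the test in shSmndc1 (log2 fold change -1.94, edgeR adjusted p = 0.00145) and in positive cells (-1.15, edgeR adjusted p = 0.00384) but is not shown in negative cells (-0.27, edgeR adjusted p = 0.378). Libraries held 34045268 to 66676008 counts in shSmndc1, EV and positive cells, 8084574 to 80757285 counts in negative cells and 49345067 to 103048766 counts in EV_RIP. Negative replicates 3 and 4 held 161 and 45.4 CPM of the non-polyadenylated RNA Rn7sk, against 2.44 to 18.6 CPM in all other libraries. Among 9 alpha cell markers Gcg led with 3774 CPM or more in every library, while Gc was at 0 throughout. The summed level of 6 acinar and duct markers, in which Spp1 led among positive libraries, was 23.7 to 34.0 CPM in shSmndc1 against 12.2 to 17.0 CPM in EV. In the second experiment it was 35.3 to 79.6 CPM (positive), 20.6 to 25.2 CPM (negative) and 10.3 to 14.8 CPM (EV_RIP). Of the 6, Spp1 and Sox9 were the most abundant and Krt19 was at or under 0.261 CPM in every library; 2 of 3 tested were higher in shSmndc1, 1 in positive cells and none in negative cells. The alpha cell markers summed to 6994 to 9404 CPM in shSmndc1 against 4479 to 7790 CPM in EV, and to 15180 to 20433 CPM (positive), 8455 to 12805 CPM (negative) and 7240 to 11864 CPM (EV_RIP). Of 8 tested, 1 was higher in shSmndc1, 3 in positive cells and none in negative cells. Beside all marker counts here, 7.22% of all genes tested were higher in shSmndc1, 8.47% in positive cells and 8.17% in negative cells. The 5 fibroblast markers, mostly Col1a2 and Col6a1, summed to 11.0 to 13.4 CPM in shSmndc1 against 5.06 to 6.14 CPM in EV, with Col3a1 at 0 in both, and 1 of 3 tested was higher in each shRNA group against its control. Of 8 beta cell markers, 2 of 4 tested were higher in shSmndc1 and 4 of 5 in positive cells, and none in negative cells. They summed to 48.9 to 54.7 CPM in shSmndc1 against 57.3 to 59.7 CPM in EV, and to 65.5 to 94.7 CPM (positive), 58.1 to 82.0 CPM (negative) and 55.8 to 77.5 CPM (EV_RIP). Nkx6-1 made up most of each sum, with a mean of 45.1 CPM in shSmndc1 against 57.1 CPM in EV. Ins2 (2.74 against 0.286 CPM) and Mafa (2.86 against 1.13 CPM) had higher means in shSmndc1. Each of the other markers was at or under 0.659 CPM in every shSmndc1 and EV library. Of 3 endothelial markers, 1 of 2 tested was higher in shSmndc1, 1 in positive cells and 2 in negative cells, where they summed to 1.81 to 5.89 CPM against 0.771 to 1.64 CPM in EV_RIP. Of 3 leukocyte markers, 1 of 2 tested was higher in shSmndc1 (23.5 to 27.9 CPM summed, against 16.7 to 24.5 CPM in EV). In negative cells 1 was higher (20.7 to 30.2 CPM, against 15.5 to 19.4 CPM in EV_RIP). In shSmndc1 the mean of Csf1r was higher (17.5 against 11.5 CPM in EV) and that of Cd68 lower (8.32 against 9.62 CPM). In negative cells both means were above EV_RIP, with Cd68 at 13.6 against 7.55 CPM. Ptprc was at 0 in every shSmndc1 library and at or under 0.481 CPM in every library. Of 4 delta, PP and epsilon markers, the 1 tested was higher in negative cells (1.23 to 3.53 CPM summed, against 0.646 to 0.955 CPM in EV_RIP). The part of these differences in the results below was not tested, and in bulk RNA fewer cells of a type and less RNA per cell cannot be told apart.

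All 28 genes were expressed. By deposited FPKM, the unit that allows levels to be compared between genes because it divides by length, Acly, which makes cytosolic acetyl-CoA, was highest, at 507 ± 7.50 FPKM in shSmndc1 (SD, n = 3) against 450 ± 82.9 FPKM in EV. Fdps, the farnesyl diphosphate synthase, was lowest in both control groups, at 6.64 ± 2.81 FPKM in EV and 7.71 ± 1.09 FPKM in EV_RIP. Tm7sf2, a sterol reductase that acts after lanosterol, was lowest wherever the shRNA was present, at 2.81 ± 0.478 FPKM in shSmndc1 against 8.88 ± 0.887 FPKM in EV. It had 2.98 ± 0.566 FPKM in positive cells and 3.16 ± 0.861 FPKM in negative cells against 8.04 ± 1.72 FPKM in EV_RIP (SD, n = 4 each).

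**Figure D1:**
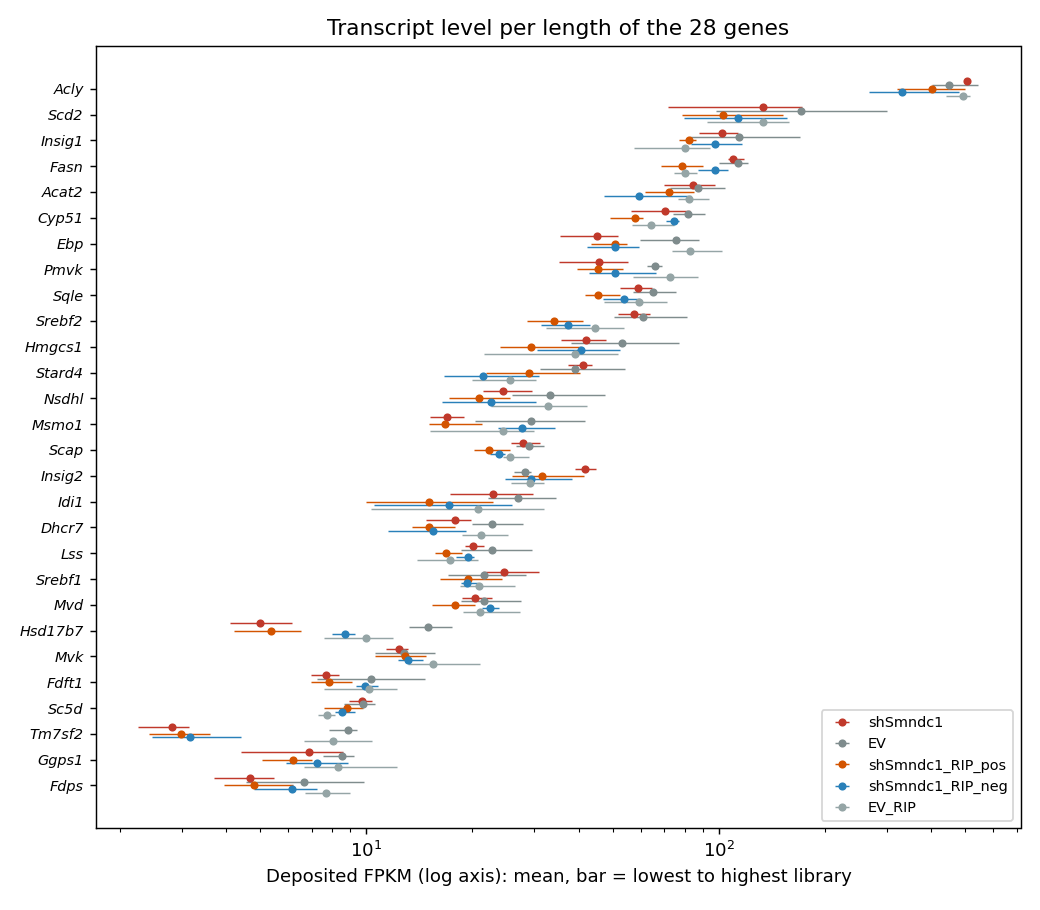
Deposited FPKM of the 28 genes on a log axis, ordered by their mean in EV; points are group means and bars run from the lowest to the highest library (3 libraries each in shSmndc1 and EV, 4 each in the other groups). Acly stood highest in all 5 groups, and Tm7sf2 and Hsd17b7 show the widest gaps between shSmndc1 and EV.

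Libraries of the same group differed in the same direction in many of the 28 genes. The ranks below were not counted over all genes, so they do not show a trait of these genes. EV replicate 2 was the highest of the 3 EV libraries in 25 of the 28 genes. It had 268 CPM of Hmgcs1, the cytosolic HMG-CoA synthase, against 135 and 157 CPM in EV replicates 1 and 3, and 1626 CPM of Scd2, a stearoyl-CoA desaturase, against 650 and 538 CPM. EV_RIP replicate 2 was the lowest of its 4 libraries in 22 genes. Replicate 1 was the highest in 20 genes among positive and in 18 among negative libraries. These differences enter the spread against which every fold change below was tested, and the genes with the widest spread among controls include Hmgcs1, Idi1, Insig1 and Scd2.

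Whether the knockdown alone changed the genes was read from shSmndc1 against EV. Of the 28 genes 3 fell, all enzymes of the last stretch after lanosterol, and 1 rose, the regulator Insig2. Over all 18202 genes tested 7.50% fell and 7.22% rose, so the share of members that fell, 3 of 28, is near the background. The median log2 fold change was -0.19 over the 28 genes and -0.00 over all genes, and 23 of the 28 had a negative sign, where 50.2% of all genes did.

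Tm7sf2 had 5.17, 3.86 and 5.45 CPM in shSmndc1, against 13.5, 15.8 and 16.1 CPM in EV. Each shSmndc1 library lay below each EV library by more than the spread of either group. At -1.65 (SE 0.18, edgeR adjusted p = 0.00443), this was the largest log2 fold change of the 28. Hsd17b7, the reductase that closes each round of sterol demethylation, had 31.3, 24.0 and 21.2 CPM in shSmndc1, against 72.3, 88.1 and 67.2 CPM in EV. The groups did not overlap (log2 fold change -1.57, SE 0.17, edgeR adjusted p = 0.00443). Ebp, the isomerase that moves the ring double bond next, had 91.2, 83.7 and 63.2 CPM in shSmndc1, against 106, 138 and 154 CPM in EV. EV replicate 1 stood closest to the shSmndc1 libraries (log2 fold change -0.74, SE 0.18, edgeR adjusted p = 0.0299).

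The other 8 enzymes of the squalene-to-cholesterol stretch did not pass, with log2 fold changes between -0.78 and 0.00. Msmo1, the oxidase that starts the demethylation which Nsdhl continues and Hsd17b7 completes, had 39.0, 31.4 and 34.6 CPM in shSmndc1, against 42.2, 85.4 and 52.6 CPM in EV. The groups did not overlap, but EV libraries differed widely and the change missed the threshold (log2 fold change -0.78, SE 0.24, edgeR adjusted p = 0.0559). Nsdhl itself was further from it (log2 fold change -0.42, SE 0.24, edgeR adjusted p = 0.255). Summed over the 11 enzymes, the level was 788 to 989 CPM in shSmndc1 against 1005 to 1337 CPM in EV. Cyp51 (mean 280 against 323 CPM) and Sqle (164 against 180 CPM), which did not pass, were the largest parts of that sum. Over all 28 genes the sums overlapped, at 6348 to 7265 CPM in shSmndc1 against 6031 to 9052 CPM in EV. Sums of the mevalonate, isoprene and fatty acid genes also overlapped. None of the 5 enzymes of the mevalonate stretch and none of the 3 isoprene enzymes passed. Pmvk, phosphomevalonate kinase, came nearest, with 95.5, 80.3 and 61.7 CPM in shSmndc1 against 113, 118 and 108 CPM in EV (log2 fold change -0.51, SE 0.16, edgeR adjusted p = 0.0596). Acly, Fasn and Scd2 had log2 fold changes between -0.36 and 0.19, and Stard4 had 0.09.

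Insig2, which retains Scap in the endoplasmic reticulum, had 134, 116 and 125 CPM in shSmndc1, against 87.2, 77.2 and 87.2 CPM in EV. All shSmndc1 libraries were above all EV libraries (log2 fold change 0.58, SE 0.11, edgeR adjusted p = 0.0163). The other 4 control genes did not pass, with edgeR adjusted p between 0.553 and 0.860. Srebf2, the SREBP that mainly drives cholesterol genes, had 325, 291 and 268 CPM in shSmndc1, against 258, 411 and 265 CPM in EV. Srebf1, whose products mainly drive fatty acid genes, had 92.5, 93.1 and 136 CPM in shSmndc1, against 74.1, 122 and 83.8 CPM in EV. For both, the groups overlapped. Scap had 115, 110 and 135 CPM in shSmndc1, against 114, 135 and 120 CPM in EV. Insig1, itself a strong SREBP target, had 308, 283 and 243 CPM in shSmndc1, against 244, 457 and 226 CPM in EV, where EV replicate 2 alone stood high.

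Tm7sf2 and Hsd17b7 kept their calls under all 10 alternatives tried for this comparison. Ebp lost its call without EV replicate 2 (edgeR adjusted p = 0.0987), EV replicate 3 (0.124) or shSmndc1 replicate 2 (0.0780), and Insig2 lost its call without the same libraries, at edgeR adjusted p of 0.0692, 0.0768 and 0.0539.

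**Figure D2:**
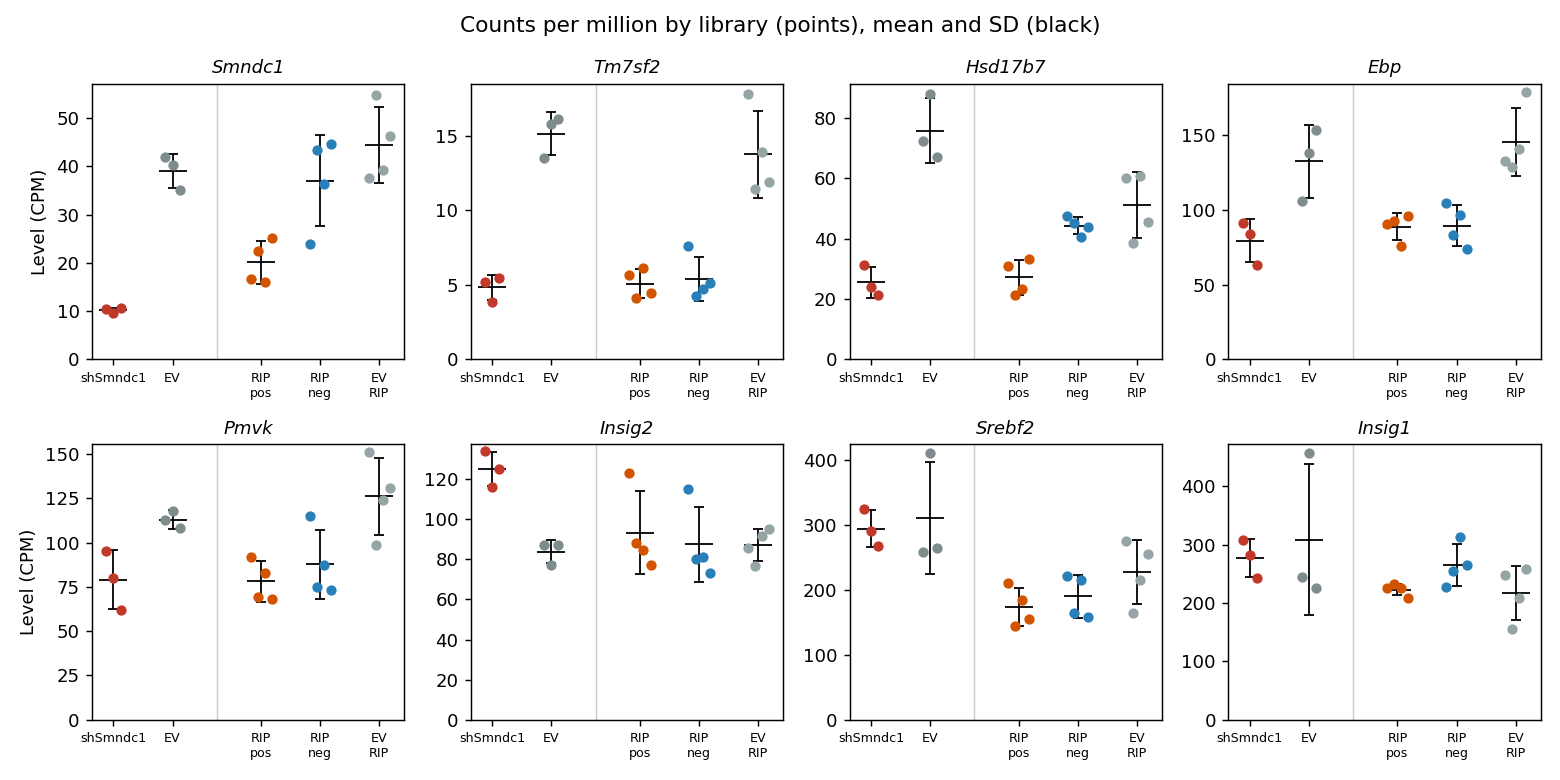
CPM of Smndc1 and 7 of the 28 genes in each library (points), with group mean and SD (black; n = 3 in shSmndc1 and EV, 4 in RIP pos, RIP neg and EV_RIP); the vertical line parts the 2 experiments. Tm7sf2 was low in every shRNA library (3.86 to 7.56 CPM) and Hsd17b7 was low in shSmndc1 and positive cells, while Srebf2 and Insig1 overlapped between groups.

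The bases before the transcription starts of the genes that carry these results are shown for their motifs. SREBPs bind sterol regulatory elements, usually beside sites for NF-Y, whose core is the CCAAT box. RefSeq windows of 250 bases before to 50 after a start (GRCm38.p6) were at hand for 23 of the 28 genes. A script searched both strands for the sterol regulatory element as TCACNCCAC, the palindromic E-box TCACGTGA, CCAAT, and the Sp1 box GGGCGG, counting each motif on its own whether or not it touches another. CCAAT was in a window of 21 of the 23 genes (91.3%), against 41.1% of all 27025 genes with a window. GGGCGG was in 20 of the 23 (87%), against 38.2% of all. TCACNCCAC was in 1 of the 23, Hmgcs1 (4.35%, against 1.44% of all), and TCACGTGA in none, against 0.974% of all windows. These shares are descriptions without a test, all genes include non-coding ones, and no match says only that these letters are not in the window. The 250 bases before the RefSeq start follow for the SREBP target Hmgcs1 (chr13:119690101-119690350, plus strand) and for Msmo1 (chr8:64733579-64733828, minus strand). Msmo1, like Hsd17b7, was lower in positive than in negative cells in a paired fit below, chosen after the data were seen. They also follow for the 3 genes that fell in shSmndc1, Tm7sf2 (chr19:6067851-6068100, minus strand), Hsd17b7 (chr1:169969206-169969455, minus strand) and Ebp (chrX:8193513-8193762, minus strand). Every sequence is written 5′ to 3′ on the gene's strand, and capitals mark TCACNCCAC and CCAAT on either strand (ATTGG is CCAAT on the other strand).
Hmgcs1: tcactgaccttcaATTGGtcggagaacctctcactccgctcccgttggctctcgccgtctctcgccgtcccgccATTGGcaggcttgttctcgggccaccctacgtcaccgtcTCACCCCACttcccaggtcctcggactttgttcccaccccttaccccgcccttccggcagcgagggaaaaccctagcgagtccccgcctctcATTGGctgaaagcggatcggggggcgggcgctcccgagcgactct
Tm7sf2: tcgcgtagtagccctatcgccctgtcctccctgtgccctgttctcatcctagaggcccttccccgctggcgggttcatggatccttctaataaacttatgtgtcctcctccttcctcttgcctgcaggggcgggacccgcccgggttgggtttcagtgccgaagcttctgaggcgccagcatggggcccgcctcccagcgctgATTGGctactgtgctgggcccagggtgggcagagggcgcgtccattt
Hsd17b7: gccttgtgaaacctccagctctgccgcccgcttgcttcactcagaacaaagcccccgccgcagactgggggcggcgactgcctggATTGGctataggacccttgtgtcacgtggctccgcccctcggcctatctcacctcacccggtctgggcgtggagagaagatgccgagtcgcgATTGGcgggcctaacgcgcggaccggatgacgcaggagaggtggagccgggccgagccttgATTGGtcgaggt
Ebp: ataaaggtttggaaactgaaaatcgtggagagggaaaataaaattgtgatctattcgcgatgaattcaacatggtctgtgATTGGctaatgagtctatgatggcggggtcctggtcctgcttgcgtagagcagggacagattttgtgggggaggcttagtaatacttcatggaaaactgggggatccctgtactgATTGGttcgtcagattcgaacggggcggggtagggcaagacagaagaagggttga
Msmo1: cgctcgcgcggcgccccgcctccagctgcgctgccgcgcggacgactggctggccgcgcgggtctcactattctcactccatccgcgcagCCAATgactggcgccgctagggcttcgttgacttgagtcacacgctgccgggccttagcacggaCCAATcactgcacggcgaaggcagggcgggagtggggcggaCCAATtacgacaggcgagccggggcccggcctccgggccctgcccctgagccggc
Hmgcs1 shows its sterol regulatory element 137 bases before the start and 3 CCAAT boxes, Hsd17b7 and Msmo1 show 3 CCAAT boxes each, Ebp 2 and Tm7sf2 1. In the GENCODE M21 annotation Tm7sf2 has 10 exons with a median intron of 214 bp, Hsd17b7 8 exons with 1450 bp, and Ebp 5 exons with 1587 bp, against a median of 7 exons and 1522 bp over all protein-coding genes.

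Positive cells against EV_RIP show the genes in cells that turned on the insulin reporter under the shRNA. Of the 28 genes 7 fell and none rose, against 8.92% of all 18897 genes that fell and 8.47% that rose. Those that fell were 5 of the 11 squalene-to-cholesterol enzymes, 1 of 5 mevalonate enzymes and 1 of 3 isoprene enzymes; no fatty acid gene and no regulator passed. The median log2 fold change was -0.38 over the 28 genes and 0.00 over all genes, with 24 of the 28 negative, where 49.9% of all genes were.

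Tm7sf2 had 5.64, 4.08, 6.13 and 4.43 CPM in positive cells, against 17.8, 11.4, 13.9 and 11.9 CPM in EV_RIP. The groups lay far apart (log2 fold change -1.44, SE 0.22, edgeR adjusted p = 0.00192). Hsd17b7 had 30.8, 21.2, 23.4 and 33.1 CPM in positive cells, against 60.0, 38.6, 60.7 and 45.4 CPM in EV_RIP. EV_RIP replicate 2 was the nearest control, still above all positive libraries (log2 fold change -0.91, SE 0.17, edgeR adjusted p = 0.00447). Ebp had 90.7, 92.9, 75.8 and 96.2 CPM in positive cells, against 133, 129, 141 and 179 CPM in EV_RIP. Again the groups did not overlap (log2 fold change -0.71, SE 0.13, edgeR adjusted p = 0.00511).

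Pmvk had 92.0, 69.4, 82.8 and 68.3 CPM in positive cells, against 151, 98.6, 124 and 131 CPM in EV_RIP, without overlap (log2 fold change -0.69, SE 0.16, edgeR adjusted p = 0.0134). Fdps had 9.08, 7.17, 5.75 and 6.12 CPM in positive cells, against 13.2, 10.1, 9.88 and 12.1 CPM in EV_RIP, also without overlap (log2 fold change -0.68, SE 0.19, edgeR adjusted p = 0.0259). The count of Fdps is uncertain, since 76.8% of its transcript has copies of at least 95% identity in 5 other genes and 26.7% of its exonic bases lie in Gm43738 on the same strand. Dhcr7, the last reductase of the route, had 59.3, 44.6, 48.7 and 48.7 CPM in positive cells, against 84.5, 62.4, 68.7 and 66.8 CPM in EV_RIP, without overlap (log2 fold change -0.49, SE 0.15, edgeR adjusted p = 0.0394). Sqle, the epoxidase that opens sterol synthesis, had 145, 117, 115 and 123 CPM in positive cells, against 198, 131, 167 and 166 CPM in EV_RIP. Its groups overlapped at EV_RIP replicate 2, and the change was the smallest that passed (log2 fold change -0.40, SE 0.13, edgeR adjusted p = 0.0444).

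Nsdhl (log2 fold change -0.65, edgeR adjusted p = 0.0526) and Msmo1 (-0.56, edgeR adjusted p = 0.0648) missed the threshold. Srebf2 had 211, 144, 185 and 155 CPM in positive cells, against 276, 165, 215 and 255 CPM in EV_RIP, and did not pass (log2 fold change -0.39, SE 0.17, edgeR adjusted p = 0.119). Srebf1 had 105, 69.5, 89.0 and 70.8 CPM in positive cells, against 114, 83.0, 85.3 and 80.4 CPM in EV_RIP, and Scap had 109, 85.3, 97.7 and 87.0 CPM against 124, 104, 105 and 104 CPM in EV_RIP. Insig1 had 226, 232, 226 and 209 CPM in positive cells, against 248, 156, 209 and 258 CPM in EV_RIP. Insig2, the gene that rose in shSmndc1, had 123, 88.1, 84.7 and 76.9 CPM in positive cells, against 85.4, 76.5, 91.4 and 95.1 CPM in EV_RIP, and its log2 fold change of 0.10 did not pass (SE 0.16, edgeR adjusted p = 0.697). All of these regulators overlapped between the groups.

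Tm7sf2, Hsd17b7 and Ebp kept their calls under all 18 alternatives. Without positive replicate 2 none of the other 4 passed, with Pmvk at edgeR adjusted p = 0.0520, Fdps at 0.0675, Dhcr7 at 0.121 and Sqle at 0.128. Their log2 fold changes were then -0.63, -0.69, -0.43 and -0.37, close to those with all libraries, and 1258 of all genes passed in place of 3286. Fdps, Dhcr7 and Sqle were also lost without EV_RIP replicate 1 (0.0802, 0.129 and 0.149), EV_RIP replicate 4 (0.0534, 0.0567 and 0.0787), positive replicate 3 (0.0674, 0.0821 and 0.101) or positive replicate 4 (0.0699, 0.0869 and 0.0931). Dhcr7 and Sqle were lost without EV_RIP replicate 3 (0.0748 and 0.0936) or negative replicate 2 (0.0517 and 0.0575), and Sqle without negative replicate 3 (0.0514). Sqle was also lost when the fit held only these 2 groups, so it lost its call in 9 of the 18 alternatives. EV_RIP replicate 2, the control in which most of the genes were lowest, worked the other way. Without it 11 of the 28 fell in place of 7, as did 1775 of all 18888 genes tested in place of 1686. Without positive replicate 1, 9 members and 1672 of all genes fell. Without negative replicate 1 or 4, 8 members fell, with 2071 and 1627 of all genes.

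**Figure D3:**
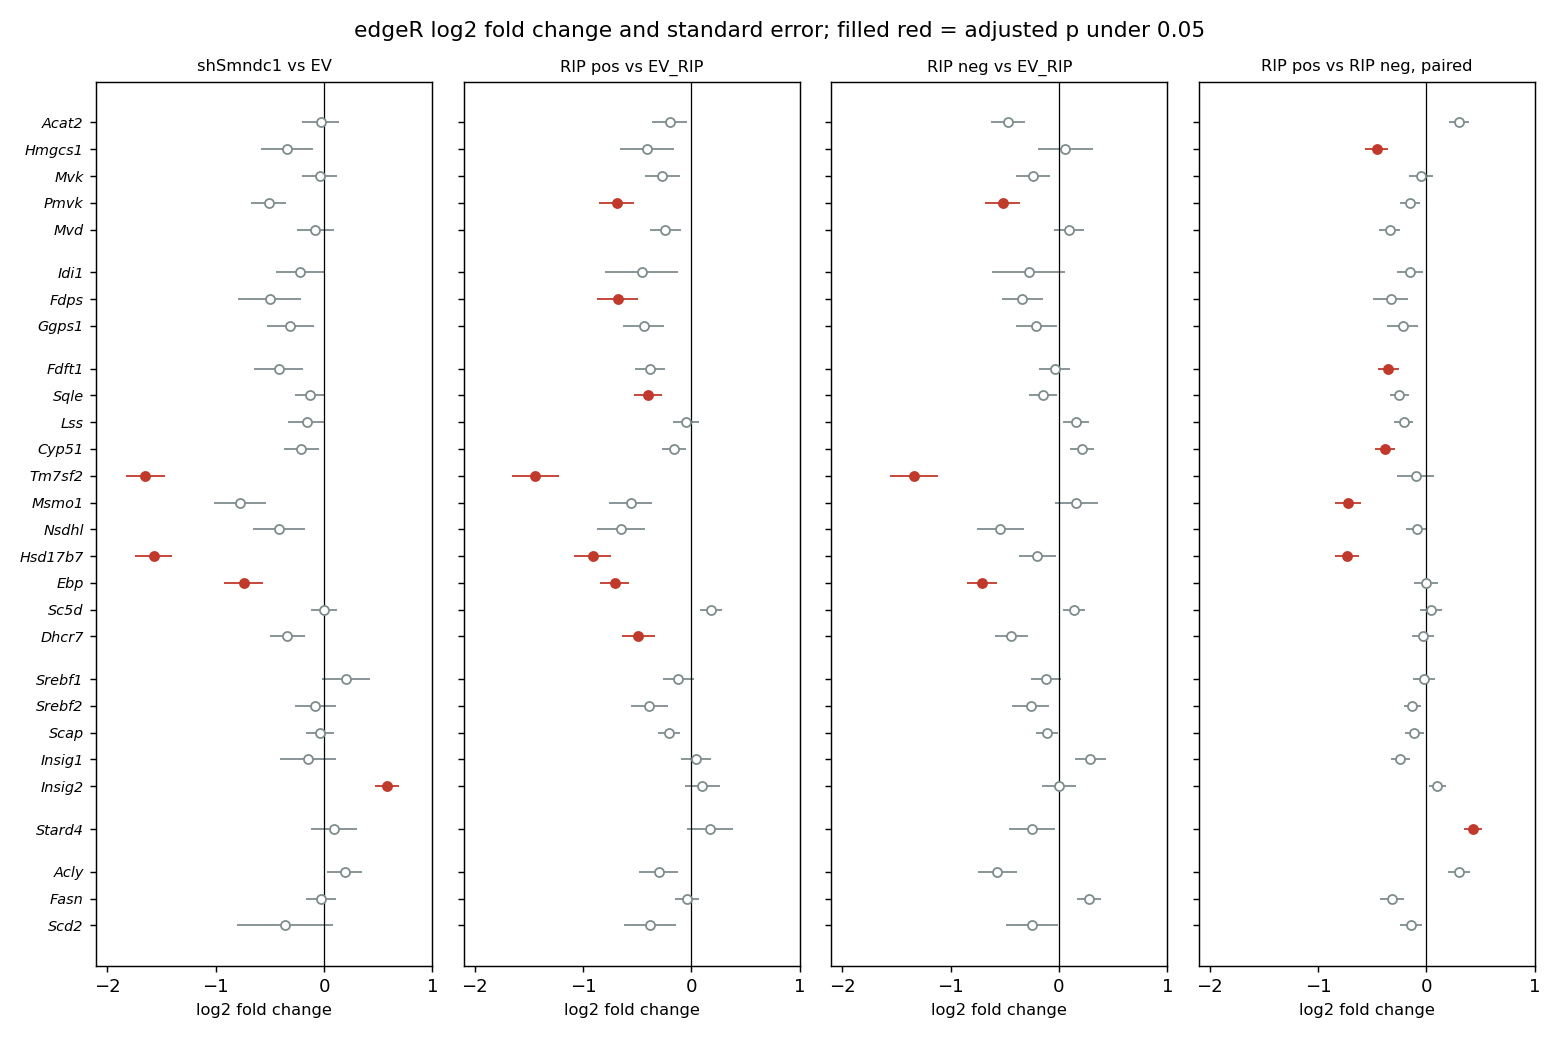
Log2 fold change (point) and standard error (bar) of the 28 genes by role in 4 comparisons, from edgeR; filled red marks an adjusted p under 0.05. Tm7sf2 and Ebp passed in each of the first 3 panels, Hsd17b7 in all panels but negative cells against EV_RIP, and the regulators Srebf1, Srebf2, Scap and Insig1 in none.

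Negative cells against EV_RIP show the genes in cells that carry the shRNA label but gave no reporter signal; the comparison shares its control libraries with the one above. Of the 28 genes 3 fell and none rose, against 5.69% of all genes that fell and 8.17% that rose. The median log2 fold change was -0.21 (-0.01 over all genes), and 19 of the 28 were negative, against 50.8% of all genes.

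Tm7sf2 had 7.56, 4.22, 4.69 and 5.08 CPM in negative cells, against the 11.4 to 17.8 CPM of EV_RIP (log2 fold change -1.34, SE 0.22, edgeR adjusted p = 0.00801). Ebp had 105, 83.0, 96.4 and 73.8 CPM in negative cells, against 129 to 179 CPM in EV_RIP (log2 fold change -0.71, SE 0.14, edgeR adjusted p = 0.0116). Both genes were thus separated from EV_RIP in every negative library, although Smndc1 itself did not pass there. Pmvk had 115, 75.0, 87.5 and 73.5 CPM in negative cells, against 98.6 to 151 CPM in EV_RIP, with an overlap at negative replicate 1 (log2 fold change -0.52, SE 0.16, edgeR adjusted p = 0.0466).

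Hsd17b7 had 47.5, 45.3, 40.5 and 44.0 CPM in negative cells, inside the 38.6 to 60.7 CPM of EV_RIP (log2 fold change -0.20, SE 0.17, edgeR adjusted p = 0.411). Msmo1 had 56.5, 48.8, 70.4 and 51.3 CPM in negative cells, against 31.3 to 61.7 CPM in EV_RIP (log2 fold change 0.16, SE 0.20, edgeR adjusted p = 0.595). Among the regulators, Srebf1 had 90.0, 82.9, 80.5 and 81.4 CPM in negative cells, against 80.4 to 114 CPM in EV_RIP, and Srebf2 had 222, 165, 216 and 159 CPM, against 165 to 276 CPM in EV_RIP. Scap had 106, 101, 104 and 95.6 CPM in negative cells, against 104 to 124 CPM in EV_RIP. Insig1 had 228, 255, 314 and 265 CPM in negative cells, against 156 to 258 CPM in EV_RIP, and Insig2 had 115, 80.1, 81.1 and 73.3 CPM, against 76.5 to 95.1 CPM in EV_RIP. None of the regulators passed, with edgeR adjusted p between 0.181 and 0.988.

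Negative libraries 3 and 4 are the ones with the most Rn7sk. Without both, no member passed and 4 of all genes did; the log2 fold changes were then -1.24 for Tm7sf2 (edgeR adjusted p = 0.152), -0.64 for Ebp (0.174) and -0.42 for Pmvk (0.374). Ebp also lost its call without negative replicate 4 alone (0.0512), and without negative replicate 1, 7 members fell and Fasn rose. Pmvk was lost without any of EV_RIP replicates 1, 3 and 4 (0.135, 0.0820 and 0.0739), negative replicates 2, 3 and 4 (0.142, 0.0933 and 0.155) or positive replicates 2, 3 and 4 (0.0529, 0.0556 and 0.0525), and when the fit held only its own 2 groups (0.0779).

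Whether an effect differed between the experiments was tested as an interaction over all 18 libraries, in which none of the 20036 genes passed for either sorted population with edgeR (0% called). At an unadjusted p under 0.05 there were 861 genes, 2 of them members, for positive cells and 2612 genes, 5 of them members, for negative cells, and DESeq2 called 5 and 338 genes. The largest difference among the 28 was Hsd17b7: its log2 fold change was 1.35 higher in negative cells than in shSmndc1 (SE 0.26, edgeR adjusted p = 0.0922), which missed the threshold but passed with DESeq2, with no filter on low counts, with the replicate block and without negative replicate 1. For positive cells the difference of Hsd17b7 was 0.65 (SE 0.26, edgeR adjusted p = 0.998). Tm7sf2 differed by 0.20 for positive and 0.29 for negative cells (SE 0.31 each), and Ebp by 0.01 for both (SE 0.23 each). Insig2 differed by -0.49 for positive and -0.59 for negative cells (SE 0.23 each, edgeR adjusted p = 0.998 and 0.273), so the difference itself did not pass.

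Positive cells against negative cells, both with the shRNA, ask how cells with and without reporter signal differ. The fit over all 12 libraries called none of 18897 genes (0%), with 2314 genes, 6 of them members, at an unadjusted p under 0.05, and DESeq2 called 312 genes including Cyp51, Msmo1 and Hsd17b7, all 3 lower in positive cells. Positive and negative libraries of the same number deviated together, so they were also compared as 4 pairs, an alternative chosen after the data were seen. In pairs, 5 members fell and 1 rose in positive cells, against 4.72% of 17994 genes that fell and 3.71% that rose.

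Hsd17b7 was lower in positive cells in 4 of 4 pairs, with log2 ratios of -0.62, -1.10, -0.79 and -0.41 in pairs 1 to 4 (paired log2 fold change -0.73, SE 0.11, edgeR adjusted p = 0.00206). Its 4 positive libraries, 21.2 to 33.1 CPM, all lay below its 4 negative libraries, 40.5 to 47.5 CPM. Msmo1 was lower as well, with log2 ratios of -0.37, -0.66, -1.18 and -0.71 (-0.72, SE 0.12, edgeR adjusted p = 0.00251), with 43.9, 30.9, 31.1 and 31.5 CPM in positive cells against 56.5, 48.8, 70.4 and 51.3 CPM in negative cells. Both enzymes act in the same demethylation; Nsdhl, between them, did not pass (paired log2 fold change -0.09, SE 0.10, edgeR adjusted p = 0.620).

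Hmgcs1 had log2 ratios of -0.26, -0.29, -0.91 and -0.39 in the pairs (-0.46, SE 0.11, edgeR adjusted p = 0.0166), with 142, 87.2, 97.9 and 83.8 CPM in positive cells against 171, 107, 183 and 110 CPM in negative cells. Gm48342, which holds 12.1% of the exonic bases of Hmgcs1 on the other strand, was lower as well (paired log2 fold change -0.63, SE 0.12, edgeR adjusted p = 0.00587), and the strand setting of the counting is not given in the sources used here. Cyp51, lanosterol demethylase, had 239, 238, 193 and 241 CPM in positive cells against 283, 295, 301 and 304 CPM in negative cells, without overlap (-0.38, SE 0.09, edgeR adjusted p = 0.0201). Fdft1, squalene synthase, had 36.6, 27.8, 32.7 and 28.6 CPM in positive cells against 40.9, 37.5, 43.4 and 37.9 CPM in negative cells, also without overlap (-0.35, SE 0.10, edgeR adjusted p = 0.0402).

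Stard4, which carries cholesterol between membranes and is itself an SREBP target, went the other way, with 211, 147, 133 and 114 CPM in positive cells against 163, 100, 101 and 86.6 CPM in negative cells. Its log2 ratios in the pairs were 0.37, 0.55, 0.40 and 0.40 (0.43, SE 0.08, edgeR adjusted p = 0.00655). Tm7sf2 and Ebp, low in both sorted populations, had paired log2 fold changes of -0.10 (SE 0.17) and 0.00 (SE 0.11). Of the regulators none passed. Srebf2 and Insig1 were lower and Insig2 higher in positive cells in 4 of 4 pairs (paired log2 fold changes -0.13, -0.24 and 0.10, edgeR adjusted p = 0.338, 0.127 and 0.509). Scap was lower in 3 of 4 pairs and Srebf1 in 2 of 4. How many of all genes had the same sign in 4 of 4 pairs was not counted. Summed over the 11 squalene-to-cholesterol enzymes, the level was 687 to 840 CPM in positive cells against 850 to 973 CPM in negative cells. In EV_RIP it was 813 to 1124 CPM, which overlapped both. Over all 28 genes the sums overlapped, at 4573 to 6510 CPM in positive cells against 4683 to 6569 CPM in negative cells.

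With the replicate number as a block in a fit of all 12 libraries, none of the 28 genes passed: the edgeR adjusted p was 0.0551 for Hsd17b7, 0.0699 for Msmo1, 0.102 for Cyp51, 0.168 for Fdft1, 0.233 for Stard4 and 0.260 for Hmgcs1, with nearly the same log2 fold changes. In the fit of pairs alone, Hsd17b7 and Msmo1 passed with any 1 pair left out. Stard4 was lost without pair 2 (edgeR adjusted p = 0.0894). Without pair 2, 3 or 4, Hmgcs1 had edgeR adjusted p of 0.0589, 0.0521 and 0.0540, Cyp51 of 0.0995, 0.0709 and 0.0758, and Fdft1 of 0.240, 0.0731 and 0.166. Their log2 fold changes stayed between -0.52 and -0.31 for Hmgcs1, -0.41 and -0.30 for Cyp51, and -0.33 and -0.32 for Fdft1, while 272 to 1078 of all genes passed in place of 1517. Without pair 1, 7 members fell and 3 rose. Pair 3 holds the negative library with the fewest counts and the most Rn7sk. Among the genes that passed in pairs, pair 3 was the widest for Msmo1, Hmgcs1 and Cyp51, and pair 2 for Hsd17b7, Fdft1 and Stard4.

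**Figure D4:**
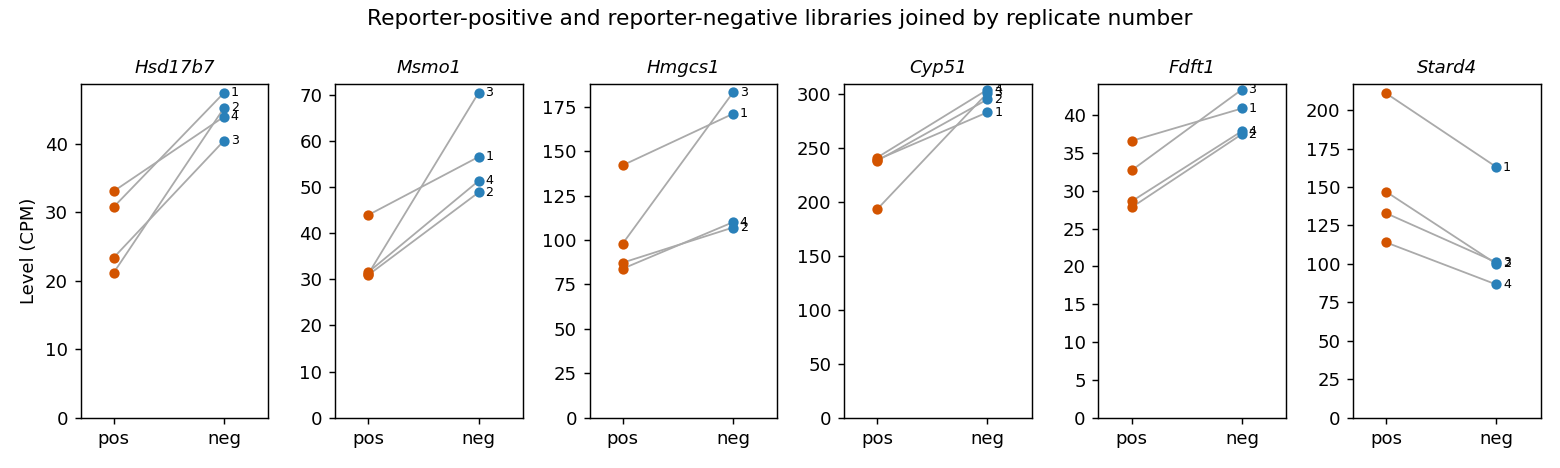
CPM of the 6 genes that passed in the paired comparison, with each positive library (left) joined to the negative library of its number (right). In all 4 pairs Hsd17b7, Msmo1, Hmgcs1, Cyp51 and Fdft1 were lower and Stard4 higher in positive cells.

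Other genes around the pathway were read from 5 lists: sterol sensing and sterol-driven degradation (10 genes), further fatty acid genes (16), the LXR response with esterification and efflux (8), sterol uptake and transport (15), and users of isoprenoids (14). All were tested in every comparison. Of the 10 sensing and degradation genes none rose; 3 fell in shSmndc1, 2 in positive cells and 1 in negative cells, where 7.50%, 8.92% and 5.69% of all genes fell. Erlin1, an endoplasmic reticulum protein that helps degrade sterol-regulated proteins, had 34.7, 32.7 and 24.5 CPM in shSmndc1, against 68.1, 64.4 and 54.5 CPM in EV (log2 fold change -1.02, SE 0.16, edgeR adjusted p = 0.00842). It had 40.0, 40.9, 30.2 and 48.0 CPM in positive libraries and 46.7, 49.3, 48.8 and 48.1 CPM in negative libraries, against 73.8, 66.4, 63.9 and 73.6 CPM in EV_RIP. Its log2 fold changes were -0.80 in positive cells (edgeR adjusted p = 0.00212) and -0.53 in negative cells (edgeR adjusted p = 0.0184), and no shRNA library overlapped its control. Faf2, which works in the same degradation, fell in shSmndc1 (log2 fold change -0.71) and in positive cells (-0.91), and in pairs it was lower in positive than in negative cells (-0.70, SE 0.14, edgeR adjusted p = 0.00667). Aup1, on lipid droplets, fell in shSmndc1 (-0.59).

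Of the 15 uptake and transport genes, 3 rose and 2 fell in shSmndc1, 4 rose and 1 fell in positive cells, and 1 rose in negative cells. Of all genes, 7.22% rose and 7.50% fell in shSmndc1, 8.47% and 8.92% in positive cells, and 8.17% and 5.69% in negative cells. Npc1, which exports cholesterol from lysosomes, had 89.1, 99.3 and 103 CPM in shSmndc1, against 66.8, 67.6 and 62.1 CPM in EV (log2 fold change 0.57, SE 0.11, edgeR adjusted p = 0.0157). It had 89.4, 82.8, 68.2 and 84.2 CPM in positive libraries and 75.2, 88.5, 91.8 and 78.8 CPM in negative libraries, against 54.9, 65.2, 57.2 and 60.2 CPM in EV_RIP (log2 fold changes 0.45 and 0.49, edgeR adjusted p = 0.0148 and 0.0160). Osbp, an oxysterol-binding exchanger, rose in shSmndc1 (0.47) and positive cells (0.33), and Lrp1, a lipoprotein receptor, rose in positive cells (0.93). Gramd1b, which moves plasma membrane cholesterol inward, fell in shSmndc1 (-0.80) and positive cells (-0.65) and was lower in positive than in negative cells in pairs (-0.44, edgeR adjusted p = 0.0223), and Osbpl2 fell in shSmndc1 (-0.46).

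Of the 16 fatty acid genes, 2 rose and 2 fell in shSmndc1, close to the 7.22% and 7.50% of all genes. In positive cells 2 rose and 5 fell, where 8.47% of all genes rose and 8.92% fell. In negative cells 2 rose and 3 fell, where 8.17% of all genes rose and 5.69% fell. Acss2, which makes acetyl-CoA from acetate, fell in all of these comparisons (log2 fold changes -0.63, -0.69 and -0.53), as did Me1, the cytosolic malic enzyme (-0.41, -0.66 and -0.46). Lpin1, a phosphatidate phosphatase, rose by 0.53, 0.69 and 1.23 and was lower in positive than in negative cells in pairs (-0.48, edgeR adjusted p = 0.0400). Gpam rose in shSmndc1 (0.42), Elovl5, a fatty acid elongase, fell in positive cells (-0.44), and Acacb rose in negative cells (1.07). Of the 8 LXR and efflux genes only Lpcat3 passed, higher in shSmndc1 (0.58). Of the 14 isoprenoid users, Pggt1b, a subunit of a geranylgeranyl transferase, fell in shSmndc1 (-0.98). Rabggta (-0.62) and Coq2, of ubiquinone synthesis (-0.79), fell in positive cells, where Rabggtb rose (0.56), as it did in negative cells (0.67).

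Counts of some of the 28 genes are uncertain where sequence is shared. Near-identical copies of at least 95% identity cover 65.6% of the transcript of Acat2 (mainly Acat3), 33.7% of Fdft1, 23.5% of Ggps1, 22.6% of Idi1, 11.4% of Scd2 and 7.01% of Insig1. Acat3 itself did not pass in any comparison, with its lowest edgeR adjusted p, 0.0698, in negative cells. Tm7sf2 shares 12.1% of its exonic bases with Vps51 on the same strand; Vps51 had log2 fold changes of -0.08, -0.19 and -0.11 in shSmndc1, positive and negative cells, none of which passed. On the other strand, Fdft1 shares 18.3% with Ctsb, Scap 13.2% with 5830462I19Rik and Cyp51 3.76% with Akap9; in pairs Ctsb (0.19) and Akap9 (-0.24) did not pass, but Akap9 was higher in negative cells than in EV_RIP (0.48, SE 0.12, edgeR adjusted p = 0.0197). Ebp, Hsd17b7, Msmo1, Pmvk, Insig2 and Stard4 share no exonic base with another gene and have no such copy.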

How the data were processed

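RNA was sequenced from 18 libraries of alphaTC1 cells as stranded mRNA libraries with 75 bp paired-end reads, per the labels' protocols. The deposited gene counts are raw counts per gene, 1 table for each of 2 experiments, on GRCm38, and the authors also deposited FPKM, which scale by depth and gene length. STAR 2.7.5a, Picard 2.19.2 and DESeq2 1.30.0 are named in the submitters' processing notes, with no role given. Neither the counting tool nor whether it used strand is given in the sources used here.

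Counts were tested with edgeR 4.0.16 (quasi-likelihood test, TMM scaling, filterByExpr with a minimum count of 10 and a total of 15) in R 4.3.3, with 6 libraries in the fit of the first experiment, 12 in that of the second, and 18 in the tests of a difference between experiments. Adjusted p-values are Benjamini-Hochberg over all genes tested, with a threshold of 0.05; log2 fold changes are of the group named first over its control, with 2-sided tests. CPM are counts over the TMM-scaled library size within an experiment; they compare libraries, not genes. The fits were first tested on simulated data. Alternatives were DESeq2 1.42.0, no filter, the replicate number as a block, fits of 2 groups only and leaving out libraries.

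Replicate numbers paired positive with negative libraries: deviations from the group means of same-numbered libraries correlated at 0.62, 0.35, 0.14 and 0.31, and 8 of 8 libraries correlated best with their own number. This comes from the data, not the labels, and the paired fit was chosen after the data were seen. The genes and lists were chosen with earlier results of these data known. All 28 genes were tested in every comparison; values per library are given for those past the threshold and the regulators, and fold changes for up to 4 genes of each other list with the smallest p. Members named where they missed the threshold (such as Msmo1, Pmvk and Hsd17b7), and Erlin1 and Npc1 for values per library, were chosen after their values were seen. Counting precision is limited by the number of counts, which is lowest in negative replicate 3 with 8084574.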

Additional observations from a re-analysis of the deposited data

Results flagged for a closer look

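In 84 groups of 4 libraries (28 genes in 3 groups), 8 held a library far from its others by Dixon's test at the 95% level, where chance alone gives about 4.2. EV_RIP replicate 1 was high for Mvk (42.2 CPM, others 26.4 to 29.0), Mvd (48.3 CPM, others 33.4 to 33.9), Srebf1 (114 CPM, others 80.4 to 85.3) and Scap (124 CPM, others 104 to 105). EV_RIP replicate 4 was high for Ggps1, with 53.8 CPM against 29.4 to 33.4 CPM in the others. Positive replicate 3 was low for Cyp51, with 193 CPM against 238 to 241 CPM, and positive replicate 1 was high for Msmo1, with 43.9 CPM against 30.9 to 31.5 CPM. Negative replicate 1 was high for Acly, with 2234 CPM against 1234 to 1396 CPM. EV_RIP replicate 1 also had the lowest share of mitochondrial counts, 0.587%, and its part in these values was not tested.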

How the results depend on the processing

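Counts of genes are those past an adjusted p of 0.05, and the cause of each change was not tested. In shSmndc1 against EV, 5 members fell with no filter and 5 with DESeq2 in place of 3, and all genes called were 4165 and 4070 in place of 2681. With the replicate block, whose numbers do not pair these libraries, 4 members fell and 2813 genes were called. Leaving out a library gave 0 to 1 member higher, 2 to 4 lower and 181 (without EV replicate 3) to 3336 (without shSmndc1 replicate 3) genes.

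In positive cells against EV_RIP, the replicate block gave 11 members lower in place of 7 and 5079 genes in place of 3286. Leaving out a library gave 0 members higher, 3 (without positive replicate 2) to 11 (without EV_RIP replicate 2) lower and 1258 (without positive replicate 2) to 4246 (without negative replicate 1) genes. In negative cells against EV_RIP, members lower were 7 with no filter, 6 with DESeq2, 7 with the replicate block, 6 with the block in a fit of the 2 groups, and 0 without negative libraries 3 and 4, in place of 3. Genes called were 4597 with the block, 1289 in a fit of the 2 groups and 4 without negative libraries 3 and 4, in place of 2620. Leaving out a library gave 0 to 1 member higher, 1 (without negative replicate 4) to 7 (without negative replicate 1) lower and 159 to 5831 genes for the same libraries. Deviations of same-numbered libraries of positive cells and EV_RIP correlated at 0.26, 0.43, -0.03 and -0.05 in pairs 1 to 4. For negative cells and EV_RIP they correlated at 0.28, 0.49, -0.20 and -0.29. In both, 4 of 8 libraries correlated best with their own number. Since the numbers do not pair all libraries with EV_RIP, the block values for these comparisons describe only the fit.

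In positive against negative cells, where no gene passed, members lower were 1 with no filter, 3 with DESeq2 and 5 in pairs, with 7 without pair 1 and 2 without pair 2, 3 or 4; the replicate block over all 12 libraries gave 0 members in either direction. Members higher were 1 in pairs, 3 without pair 1 and 1 without pair 3 or 4. Genes called were 150 with no filter, 312 with DESeq2, 78 with the replicate block over all 12 libraries, and 1517 in pairs, with 1580, 272, 1078 and 853 without pairs 1 to 4. Leaving out a library gave 0 to 1 member higher, 0 lower and 0 to 517 genes (without negative replicate 1).

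For the difference of positive cells from shSmndc1, 5 genes passed with no filter, 5 with DESeq2 and 1 with the block, and leaving out a library gave 0. For negative cells, 1 member (Hsd17b7, higher) passed with no filter, with DESeq2 and with the block, among 186, 338 and 238 genes, and leaving out a library gave 0 to 1 member higher, 0 to 1 lower and 0 to 453 genes (without negative replicate 1). Members that passed against EV or EV_RIP kept their direction under all of these alternatives. Directions of the other called genes were not compared.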
